A study of Arabidopsis with 12 samples.

Results

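The comparison described here set 2 ATH1 arrays of the jasmonate receptor mutant coi1-2 against 2 arrays of its wild type Col-0, all after 4 h with the ethanol solvent alone (mock). These are 4 of the 12 arrays of the series, chosen by their titles, and all 22589 features of the arrays were compared. RNA came from whole 7-day-old Arabidopsis seedlings of Columbia background, grown on MS medium under long days at 23 °C. In addition, 2 arrays each of coi1-2 and Col-0 after 4 h with 100 µM methyl jasmonate (MeJA) served as a second set of samples of the same genotypes, and 2 mock arrays of the ethylene mutant ein3 eil1 were set beside coi1-2. The values are log2 expression levels, and a feature was called when its limma p-value was under 0.05 after Benjamini-Hochberg adjustment across all 22589. Of the features, 13356 were genes with a single name and 9233 were probe sets without one.

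COI1 is the F-box protein that, with a JAZ repressor, binds the active jasmonate. Binding marks JAZ proteins for breakdown and frees transcription factors such as MYC2, MYC3 and MYC4, which switch on wound and herbivore defence, glucosinolate synthesis and jasmonate metabolism itself. Jasmonate also restrains growth of shoot and root and opposes parts of the salicylate branch of immunity. coi1-2 is known as an allele with partial loss of function, and the mutant was represented by a single line. The labels give neither the number of pooled seedlings nor whether the 2 replicates of a group came from separate cultures. The p-values therefore cover the spread between these arrays alone, and that spread may be technical.

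COI1 was not analysed here, so its own level could not check the labels. EIN3, which is intact in both genotypes compared, was at 9.46 and 9.26 in coi1-2, against 9.59 and 9.50 in Col-0 (adjusted p = 0.463). Replicate arrays correlated across features at 0.9934 for coi1-2 and 0.9935 for Col-0. On the first principal component, with 45.3% of the variance of all 12 arrays, the coi1-2 mock arrays lay at −48.6 and −47.7, against −9.2 and −8.6 for the Col-0 mock arrays. On the second component (18.8%) the Col-0 mock arrays lay at 42.9 and 41.9, apart from the other 10, which lay between −22.4 and 9.1. Every mock difference from Col-0 below rests on these Col-0 mock arrays. The MeJA arrays, which share no array with the mock comparison, are therefore given beside the main results. Calls in both comparisons used the same estimate of spread for each feature, from all 12 arrays, so they are not independent. Of 7 measured light harvesting and photosystem genes, markers of green tissue, 0 were called (median difference −0.18), and their mean level was 11.50 and 11.59 in coi1-2, against 11.74 and 11.66 in Col-0. Of 3 measured root markers, 3 were lower, with a mean level of 8.001 and 8.12 in coi1-2, against 9.05 and 8.98 in Col-0. Over all features 6.07% were called lower and 13.5% in either direction. In whole seedlings, fewer cells of a type and less RNA per cell cannot be told apart.

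Without jasmonate treatment, the coi1-2 seedlings differed from Col-0 in 3047 features, 13.5% of those tested. Of these, 1675 were higher in coi1-2 (7.42%) and 1372 were lower (6.07%). The largest differences were mostly rises. Features at least 2-fold higher numbered 637 (2.82%), against 287 at least 2-fold lower (1.27%), and 137 were at least 4-fold higher, against 35 at least 4-fold lower. The median difference was 0.87 (log2, coi1-2 minus Col-0) among features called higher and −0.68 among those called lower, and −0.03 over all features. In 3047 of 3047 called features both arrays of 1 genotype lay beyond both of the other, while 52.4% of all features were separated in this way. Calls were few among dim features, with 0.903% called in the lowest quartile of mean level and 22.8% in the highest. In that highest quartile 699 of 5647 features were called higher and 590 lower. The shares over all features given beside gene lists below are therefore low yardsticks for lists of abundant transcripts. Named genes of chromosomes 1 to 5 were called at similar shares, between 10.5% and 12.4%, and 0 of 69 plastid genes were called. The count of 3047 fell to 1733 without coi1-2 mock replicate 2, to 1944 without Col-0 mock replicate 1 and to 1897 without Col-0 mock replicate 2. Features called lower fell to 909 without coi1-2 mock replicate 1, 735 without coi1-2 mock replicate 2, 858 without Col-0 mock replicate 1 and 761 without Col-0 mock replicate 2. Features called higher fell to 998 without coi1-2 mock replicate 2 and to 1086 without Col-0 mock replicate 1.

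**Figure D1:**
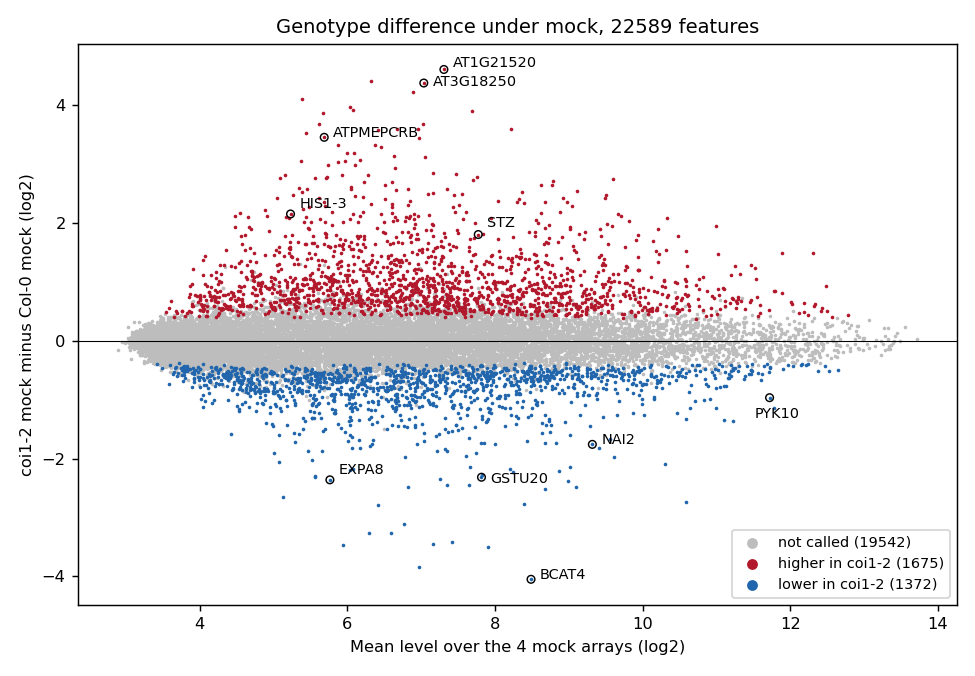
Difference between coi1-2 mock and Col-0 mock (y axis, log2) against the mean level over the 4 mock arrays (x axis, log2), 1 point per feature; red points were called higher in coi1-2 (1675), blue points lower (1372) and grey points were not called. The called features span nearly the whole range of levels, and BCAT4 is the named gene furthest below 0 while AT1G21520 is the one furthest above it.

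The gene furthest below Col-0 was BCAT4, the aminotransferase that starts the elongation of methionine for aliphatic glucosinolates, the sulfur-rich defence compounds of the cabbage family. It was at 6.33 and 6.59 in coi1-2, against 10.40 and 10.62 in Col-0. The groups were far apart and their replicates close, a difference of −4.05 ± 0.14 (log2, SE, n = 2 arrays per group), or 16.6-fold lower (limma adjusted p = 1.21e-08). GSTU20, a tau glutathione S-transferase assigned to the core of the same pathway, was at 6.83 and 6.49 in coi1-2, against 8.87 and 9.08 in Col-0, a 4.98-fold lower level (−2.32 ± 0.17, adjusted p = 3.9e-06). AT2G31790, which stands on the same list, was also lower (−1.301 ± 0.18). The side-chain gene AOP3 was at −0.05 and did not pass, with all 4 of its arrays between 3.92 and 4.02, near the bottom of the range. Thus 3 of the 4 measured genes of aliphatic glucosinolate synthesis fell and 0 rose, where 6.07% of all features were called lower. Most genes of that pathway and its MYB regulators had no named probe set and were not analysed here.

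Other glucosinolate genes were higher in coi1-2 or did not pass. GTR1, a transporter that imports glucosinolates into cells, was at 8.20 and 8.24 in coi1-2, against 7.29 and 6.79 in Col-0, a rise of 1.18 ± 0.18 (adjusted p = 0.000756). Its relative GTR2 was at 0.23 and did not pass. AT2G04400, from the list of tryptophan and indole glucosinolate genes, rose by 1.05 ± 0.15 (adjusted p = 0.000573). Under MeJA, by contrast, GTR1 (−0.66, limma adjusted p = 0.0396) and AT2G04400 (−0.74, adjusted p = 0.00926) were called lower in coi1-2. Under mock UGT74B1, which adds glucose to the glucosinolate core, was at 0.49 (adjusted p = 0.14). In sulfate assimilation, which supplies the sulfur, the ATP sulfurylase gene APS3 fell by 0.91, with 6.23 and 6.33 in coi1-2 against 7.15 and 7.24 in Col-0, and APS4 was at −0.04. The sulfite reductase gene SIR (−0.46) and the cysteine synthase family gene OASA2 (0.78) passed. SIR lost its call without either coi1-2 mock array or without Col-0 mock replicate 1, and OASA2 without coi1-2 mock replicate 1 or Col-0 mock replicate 2.

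ER bodies are the compartments in which seedlings and roots of the cabbage family store β-glucosidases that cleave glucosinolates. Of 7 measured genes in a group of jacalin lectins and ER-body genes, 4 fell, 0 rose and 3 did not pass (median −0.87), where 6.07% of all features were called lower. The group had been collected by symbol after its values were seen, so its count is a description only. NAI2, needed to form ER bodies, was at 8.59 and 8.29 in coi1-2, against 10.14 and 10.25 in Col-0, 3.38-fold lower (−1.76 ± 0.15, adjusted p = 1.32e-05). PYK10, the main β-glucosidase of root ER bodies, was at 11.24 and 11.22 in coi1-2, against 12.18 and 12.22 in Col-0 (−0.96 ± 0.13, adjusted p = 0.000329). The lectins JAL33 (−0.87) and JAL34 (−1.02) fell as well, while NAI1, the transcription factor that controls ER-body genes, was at −0.40 and did not pass. The same 4 genes were called with each mock array left out in turn. PYK10 is also 1 of the 3 root markers that were lower in coi1-2, beside the root-hair expansins EXPA7 and EXPA18, and the part of root RNA in these differences was not tested.

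In the jasmonate pathway itself, few genes had a named probe set. On the list of jasmonate breakdown 3 of 4 measured genes fell and 0 rose, where 6.07% of all features were called lower and 13.5% in either direction. JRG21, a jasmonate-regulated gene of that list, was at 7.18 and 7.06 in coi1-2, against 9.52 and 8.23 in Col-0 (−1.76 ± 0.29, adjusted p = 0.0014). The Col-0 replicates differed by more than 1 log2 unit, yet both lay above both coi1-2 arrays. AT2G38240 (−1.04 ± 0.22) and AT5G05600 (−0.99 ± 0.18) were lower, and AT3G11180 was at −0.09. AT2G38240 lost its call without coi1-2 mock replicate 2 or Col-0 mock replicate 1. Of 3 measured jasmonate synthesis genes 0 were called: OPCL1, a ligase of the peroxisomal steps, was at 0.20, the lipase gene DGL at 0.04 and the methyltransferase gene JMT at −0.09. The transcription factor gene MYC3 was at 0.47 ± 0.12, a call (adjusted p = 0.0226) that was lost whichever mock array was left out, and MYC4 was at −0.11. The response genes THI2.1, a thionin, and BSMT1, a methyltransferase, were at −0.08 and 0.00, with levels between 3.09 and 3.77 on all 4 arrays. Of 4 defensin and related genes of the branch shared with ethylene, 0 were called, PDF1.2b at −0.60 having the lowest value.

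Of 13 measured genes of immune signalling and chitinases 9 rose, 0 fell and 4 did not pass, where 7.42% of all features were called higher. These genes were collected by symbol after their values were seen, so the count and their median of 0.91 describe them and test nothing. Between 8 and 9 were called with single mock arrays left out. The class V chitinase gene ChiC was at 7.74 and 8.01 in coi1-2, against 5.87 and 5.71 in Col-0, a 4.24-fold rise (2.09 ± 0.15, adjusted p = 2.57e-06). The ubiquitin ligase gene RING1 was at 7.71 and 7.70 in coi1-2, against 5.95 and 6.08 in Col-0 (1.69 ± 0.16, adjusted p = 2.17e-05). SAG101, a partner of EDS1 in immunity by resistance proteins, was at 5.90 and 5.97 in coi1-2, against 4.65 and 4.62 in Col-0 (1.3003 ± 0.19, adjusted p = 0.000527). As in every called feature, the genotypes did not overlap in these 3 genes. The differences were several times the gaps between replicates. BIK1, a kinase below pattern receptors, rose by 0.88 ± 0.12, SGT1A, a co-chaperone of resistance proteins, by 0.91 ± 0.13 and the chitinase gene CHI by 1.04 ± 0.18. The U-box ubiquitin ligases PUB22 (1.32 ± 0.19) and PUB23 (0.96 ± 0.12), which dampen immune signalling, rose too, and PUB24 (0.85 ± 0.20) lost its call without coi1-2 mock replicate 1 or either Col-0 mock array. The glutaredoxin gene GRX480, a salicylate response gene, was at −0.30, and the receptor gene EFR at −0.03, neither passing.

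Of 6 measured regulators that respond early to wounding and stress 4 rose, 0 fell and 2 did not pass, with a median of 1.71, where 7.42% of all features were called higher. STZ, a zinc finger repressor also called ZAT10, was at 8.79 and 8.56 in coi1-2, against 7.16 and 6.58 in Col-0 (1.81 ± 0.25, adjusted p = 0.000382). WRKY53, a transcription factor of senescence and defence, was at 5.47 and 5.30 in coi1-2, against 3.82 and 3.67 in Col-0 (1.64 ± 0.15, adjusted p = 1.79e-05). WRKY6 rose by 1.77 ± 0.23 and the calmodulin-like gene CML37 by 1.93 ± 0.27, while CML38 was at 0.90 (adjusted p = 0.0606) with coi1-2 at 8.01 and 8.42 against 7.78 and 6.85 in Col-0. In Col-0, WRKY53 and CML37 (3.81 and 3.61) lay below the lower quartile of their arrays (3.87 and 3.82). The size of these differences is therefore less certain. The 6 WRKY genes with a symbol here were collected after their values were seen and include WRKY53 and WRKY6 again. Of them 4 rose and 0 fell. That count fell to 2 without coi1-2 mock replicate 1, since WRKY22 (0.93) and WRKY47 (0.67) were then not called.

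Drought, heat and folding genes gave a mixed picture. The dehydrin gene LTI30 was at 9.66 and 9.75 in coi1-2, against 8.004 and 7.49 in Col-0 (1.960 ± 0.22, adjusted p = 7.73e-05), and the drought-induced linker histone gene HIS1-3 was at 6.30 and 6.32 in coi1-2, against 4.09 and 4.21 in Col-0 (2.16 ± 0.15, adjusted p = 2.06e-06). The other 3 measured genes of cold and abscisic acid response did not pass, COR47 at 0.39, COR15B at 0.15 and COR15A at −0.55. Of 10 heat shock and co-chaperone genes collected by symbol 3 rose and 1 fell, where 7.42% of all features were called higher and 6.07% lower. Hsp70-2 was at 9.88 and 10.07 in coi1-2, against 8.15 and 7.40 in Col-0 (2.197 ± 0.26, adjusted p = 0.000142), and Fes1A, a nucleotide exchange factor of cytosolic HSP70, rose by 1.91 ± 0.28. Its relative Fes1B fell by 0.90. Of 14 measured ER folding and stress genes, also collected by symbol after their values were seen, 2 rose, 1 fell and 11 did not pass (median 0.03). The smaller of the rises was BZIP28 (0.54 ± 0.13, limma adjusted p = 0.0126). BZIP60, a transcription factor of the unfolded protein response, rose by 1.00 ± 0.12, and the calreticulin gene CRT1b fell by 0.79 but lost its call without coi1-2 mock replicate 2 or either Col-0 mock array. The 10 ATG8 and ATG3 autophagy genes were likewise collected by symbol after their values were seen. All 10 had a positive difference (0.03 to 0.97), and 4 rose and 0 fell, where 7.42% of all features were called higher. That count fell to 1 without coi1-2 mock replicate 1 or Col-0 mock replicate 1, and to 2 without either of the other mock arrays.

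Among cell wall genes, the expansins, xyloglucan endotransglucosylases and class III peroxidases had members called in both directions, while other families had calls in 1 direction. The pectin methylesterase gene ATPMEPCRB was at 7.28 and 7.55 in coi1-2, against 3.88 and 4.03 in Col-0, a 10.99-fold higher level (3.46 ± 0.15, adjusted p = 3.77e-08), with Col-0 near the lower quartile of its arrays. XTH18, a xyloglucan endotransglucosylase, was at 11.46 and 11.29 in coi1-2, against 9.24 and 9.33 in Col-0, a 4.27-fold rise in an abundant transcript (2.096 ± 0.18, adjusted p = 1.19e-05). In the same family XTH26 was at 5.52 and 5.43 in coi1-2, against 6.56 and 6.66 in Col-0 (−1.13 ± 0.16, adjusted p = 0.000519), and the other 6 measured members did not pass. Of 14 expansins and expansin-like genes, which loosen walls, 3 rose and 4 fell, where 7.42% of all features were called higher and 6.07% lower. EXPA8 was at 4.53 and 4.63 in coi1-2, against 7.02 and 6.86 in Col-0 (−2.36 ± 0.26, adjusted p = 7.05e-05). EXPA15 (−1.07), EXPA18 (−1.04) and EXPA7 (−0.86) were lower, and EXLA2 (0.83), EXPA4 (0.79) and EXLA1 (0.62) were higher. The rises numbered 1 without coi1-2 mock replicate 1, coi1-2 mock replicate 2 or Col-0 mock replicate 1, and the falls numbered 2 without coi1-2 mock replicate 1, when EXPA15 and EXPA18 lost their calls. The class III peroxidase gene Prx37 fell by 1.95 ± 0.21 and PRX52 rose by 1.35 ± 0.27. Among 22 trichome birefringence-like genes, a family that acetylates wall polysaccharides, 4 fell, 0 rose and 18 did not pass, led by TBL45 (−1.49 ± 0.13), where 13.5% of all features were called in either direction and 6.07% lower. Those 4 falls became 2 without coi1-2 mock replicate 2 or Col-0 mock replicate 2.

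Detoxification and transport families also held members that moved in opposite directions. Over all features 7.42% were called higher and 6.07% lower. Of 10 measured tau glutathione S-transferases 1 rose and 3 fell: GSTU22 was at 7.13 and 7.53 in coi1-2, against 5.35 and 4.40 in Col-0 (2.45 ± 0.28, adjusted p = 0.0001), while GSTU26 (−1.09) and GSTU27 (−0.88) were lower beside GSTU20. GSTU27 lost its call without coi1-2 mock replicate 2 or Col-0 mock replicate 1. Of 47 UDP-glycosyltransferases 3 rose, UGT73B5 (2.28 ± 0.23), UGT73B4 (1.59 ± 0.25) and UGT87A2 (1.08 ± 0.20), and 1 fell. These calls made up 8.51% of the family, beside 13.5% over all features, and are too few to tell these shares apart. The methionine sulfoxide reductase gene MSRB6 was at 6.21 and 6.57 in coi1-2, against 7.83 and 8.19 in Col-0 (−1.62 ± 0.15, adjusted p = 2.58e-05). Of 14 sugar transporter genes of the SWEET family 2 rose, 1 fell and 11 did not pass. The sucrose exporter gene SWEET11 fell by 0.80 ± 0.13, to 10.63 and 10.57 in coi1-2 against 11.30 and 11.50 in Col-0. SWEET10 rose by 1.00 ± 0.22, with 6.25 and 6.90 in coi1-2 against 5.76 and 5.39 in Col-0, and SWEET3 rose by 0.60 ± 0.13. The rises numbered 0 without coi1-2 mock replicate 2 and 1 without Col-0 mock replicate 2. Of 4 measured auxin response genes 2 rose and 0 fell. The auxin-conjugating enzyme gene WES1, also called GH3.5, rose by 1.17 ± 0.18. Its relative GH3.17 rose by 0.63 ± 0.16 (limma adjusted p = 0.0185), while GH3.3 was at 0.17 and did not pass.

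**Figure D2:**
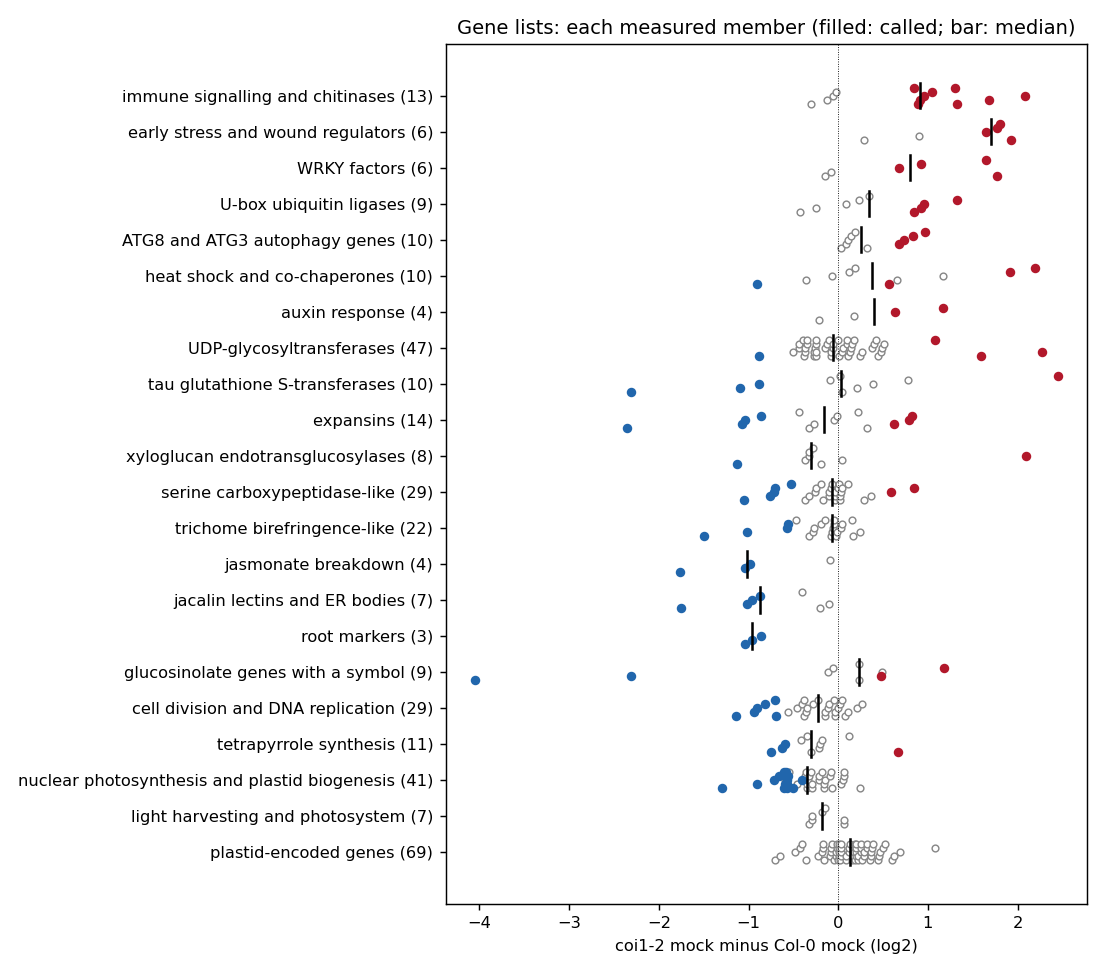
Difference between coi1-2 mock and Col-0 mock (x axis, log2) of each measured member of 22 gene lists (y axis, number of members in brackets); red and blue filled points were called higher and lower, open points were not called, and black bars are medians. The immune and early stress lists have medians of 0.91 and 1.71, the jasmonate breakdown and ER-body lists of −1.02 and −0.87, and 15 of 41 genes of nuclear photosynthesis and plastid biogenesis were called lower.

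Of 41 nuclear genes of photosynthesis and plastid biogenesis, collected by symbol after their values were seen, 15 fell, 0 rose and 26 did not pass, where 6.07% of all features were called lower. Counting also those that did not pass, 36 had a negative difference (median −0.35). CaS, the calcium sensor of the thylakoid, was at 7.82 and 7.78 in coi1-2, against 9.07 and 9.11 in Col-0, 2.45-fold lower (−1.295 ± 0.18, adjusted p = 0.000516). The other 14 falls were between −0.41 and −0.91, among them the plastid division gene FTSZ2-2 (−0.67), the Calvin cycle gene SBPASE (−0.60), the iron-sulfur cluster gene HCF101 (−0.60) and the photosystem II assembly gene LPA2 (−0.58). The count depended on single arrays: leaving out a coi1-2 mock array gave 9 (replicate 1) or 5 (replicate 2), and leaving out a Col-0 mock array gave 11 (replicate 1) or 3 (replicate 2). In tetrapyrrole synthesis, which makes chlorophyll, 3 of 11 genes fell, where 6.07% of all features were called lower. These were PORB (−0.75), CHLI2 (−0.62) and HEME1 (−0.59), while HEMA2 rose by 0.67. Of these calls 1 was left without coi1-2 mock replicate 1 and 1 without Col-0 mock replicate 2. Of 69 genes of the plastid genome itself 0 were called, and 48 had a positive difference (median 0.14).

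Of 29 genes of cell division and DNA replication, collected by symbol after their values were seen, 6 fell, 0 rose and 23 did not pass (median −0.23), where 6.07% of all features were called lower. The falls included the topoisomerase gene TOPII (−0.90 ± 0.13), the replication helicase gene PRL, also called MCM7 (−0.94 ± 0.18), the Aurora kinase gene AUR1 (−0.82 ± 0.20) and the histone gene HTB1 (−0.70 ± 0.15). TOPII was at 3.95 and 4.15 in coi1-2, against 4.98 and 4.92 in Col-0, low levels in both genotypes. The 6 falls became 3 without coi1-2 mock replicate 2 and 2 without Col-0 mock replicate 2, so nothing is read from the count about cell division genes as a group. The stomatal genes STOMAGEN (−0.71) and SPCH (−0.53) passed with all arrays, and neither was called without coi1-2 mock replicate 1 or without either single Col-0 mock replicate.

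Genes known only by locus code made up most of the extremes, as they did of all named genes (11799 of 13356). The 15 highest named genes ranged from 3.07 (AT4G33550) to 4.61 (AT1G21520), and ATPMEPCRB was the only 1 of them with a symbol. AT1G21520 was at 9.60 and 9.63 in coi1-2, against 5.03 and 4.98 in Col-0, a 24.4-fold higher level (4.61 ± 0.38, adjusted p = 8.84e-06). AT2G17740 was at 9.50 and 9.78 in coi1-2, against 5.68 and 5.80 in Col-0 (3.91 ± 0.15, adjusted p = 1.68e-08). AT3G47480 was at 9.84 and 10.19 in coi1-2, against 6.69 and 6.13 in Col-0 (3.60 ± 0.23, adjusted p = 1.19e-06). In 13 of these 15 genes the Col-0 mean lay below the median of its arrays, where signal may be partly background, so the size of the fold is less certain than its direction. Among the 15 with the lowest differences, AT4G22212 was at 9.14 and 9.31 in coi1-2, against 11.88 and 12.03 in Col-0, 6.64-fold lower (−2.73 ± 0.14, adjusted p = 2.26e-07). AT4G33720 had the second largest fall, to 4.72 and 4.60 in coi1-2 against 8.25 and 7.61 in Col-0, with a wide error over all groups (−3.26 ± 0.53, adjusted p = 0.0014). In 5 of these 15 genes the coi1-2 mean lay below the median of its arrays. Of the 30 genes 0 lost their call with any mock array left out.

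**Figure D3:**
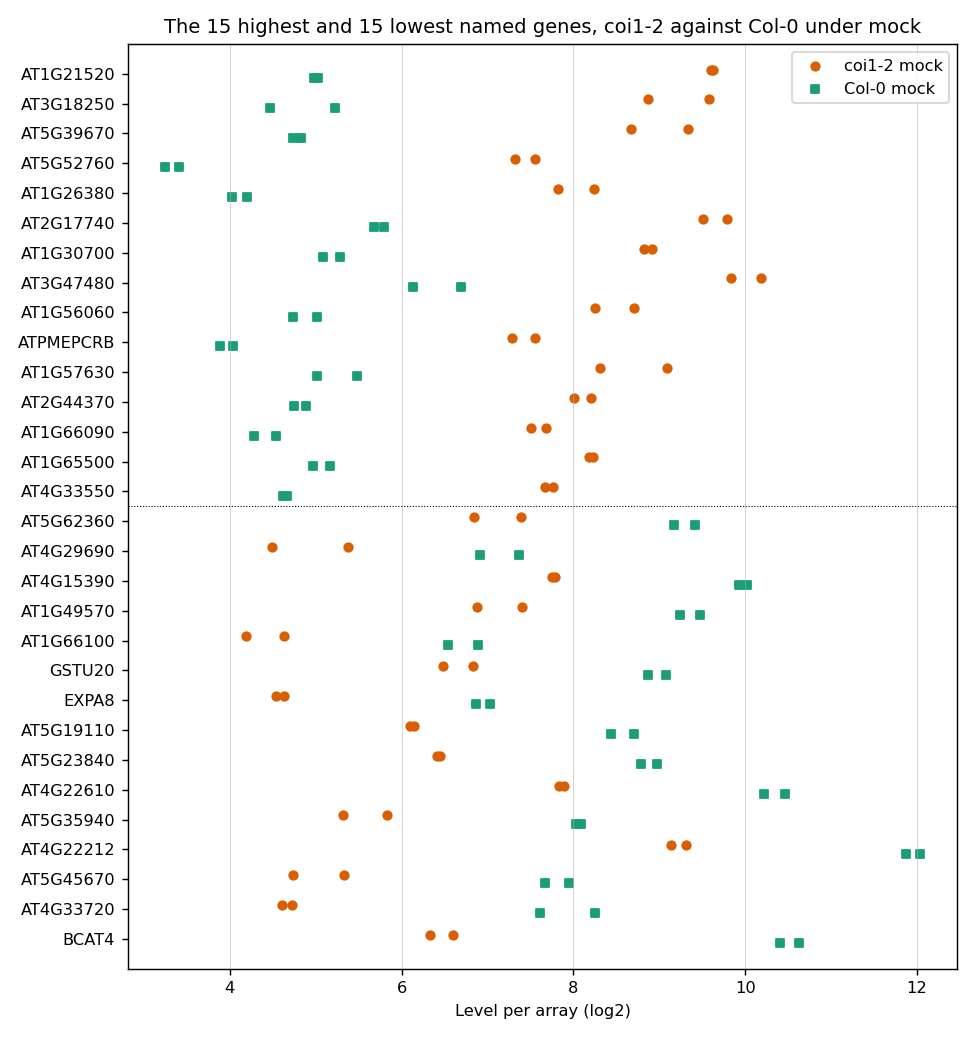
Level on each array (x axis, log2) of the 30 named genes at the extremes (y axis, 15 highest above and 15 lowest below the dotted line), with coi1-2 mock as orange circles and Col-0 mock as green squares. The genotypes do not overlap in any of the 30 genes, by the rule that chose them, and the gap is widest for AT1G21520 above the line and BCAT4 below it.

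Among the most abundant transcripts, AT2G38870 stood out with 13.01 and 13.11 in coi1-2, against 11.55 and 11.57 in Col-0, a 2.82-fold rise near the top of the scale (1.495 ± 0.15, adjusted p = 3.27e-05). AT3G09200 (−0.45) and AT1G56220 (0.49) were called but lost the call whichever of the 4 mock arrays was left out.

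The MeJA arrays asked whether the genotype difference was also present in a second set of samples. Both comparisons came from the same fit and shared each feature's estimate of spread. A feature's call under MeJA is therefore not independent of its call under mock. Of the 1675 features higher in coi1-2 under mock, 91.1% were also higher under MeJA, and 648 (38.7%) were called in the same direction, where 4.19% of all features were called higher. Of the 1372 lower features 87.5% were also lower and 362 (26.4%) were called lower, where 3.1% of all features were. These 648 and 362 features are 68.5% and 51.7% of all features called higher and lower under MeJA. Calls in the opposite direction numbered 20 and 13. The median difference of the mock calls was smaller under MeJA, 0.50 against 0.87 for the higher and −0.34 against −0.68 for the lower, and the mock values are those that chose the features. In all, 33.1% of the mock calls were called the same way (Wilson 95% interval 31.5% to 34.8%). That interval treats features as independent and leaves out the spread between arrays, so it understates the uncertainty of this share. This share was 18.9% without coi1-2 MeJA replicate 1 and 19.6% without Col-0 MeJA replicate 2.

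Named genes differed in how far their mock difference held under MeJA. BCAT4 was at 8.35 and 8.44 in coi1-2 MeJA, against 10.42 and 10.54 in Col-0 MeJA, still lower but by 2.09 in place of 4.05. NAI2 was at 9.22 and 9.38 in coi1-2 MeJA, against 10.85 and 10.68 in Col-0 MeJA (−1.47, adjusted p = 7.57e-05). XTH18 and ChiC stayed higher in coi1-2, by 1.63 and 1.71. All 15 of the highest named genes were called higher under MeJA as well (1.64 to 3.40), and 12 of the 15 lowest were called lower. For STZ no difference was called under MeJA. It was at 8.55 and 8.32 in coi1-2 MeJA, against 8.36 and 8.83 in Col-0 MeJA (−0.16, adjusted p = 0.84), and the Col-0 mock arrays, at 7.16 and 6.58, were the lowest of the 12. EXPA8 was at 4.01 and 4.31 in coi1-2 MeJA, against 4.07 and 4.27 in Col-0 MeJA, with Col-0 mock the highest of the 6 groups. HIS1-3 differed by 0.42 under MeJA (adjusted p = 0.128) and WRKY53 by 0.33 (adjusted p = 0.246). GTR1 and AT2G04400, higher in coi1-2 under mock, were called lower in coi1-2 under MeJA (−0.66 and −0.74).

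**Figure D4:**
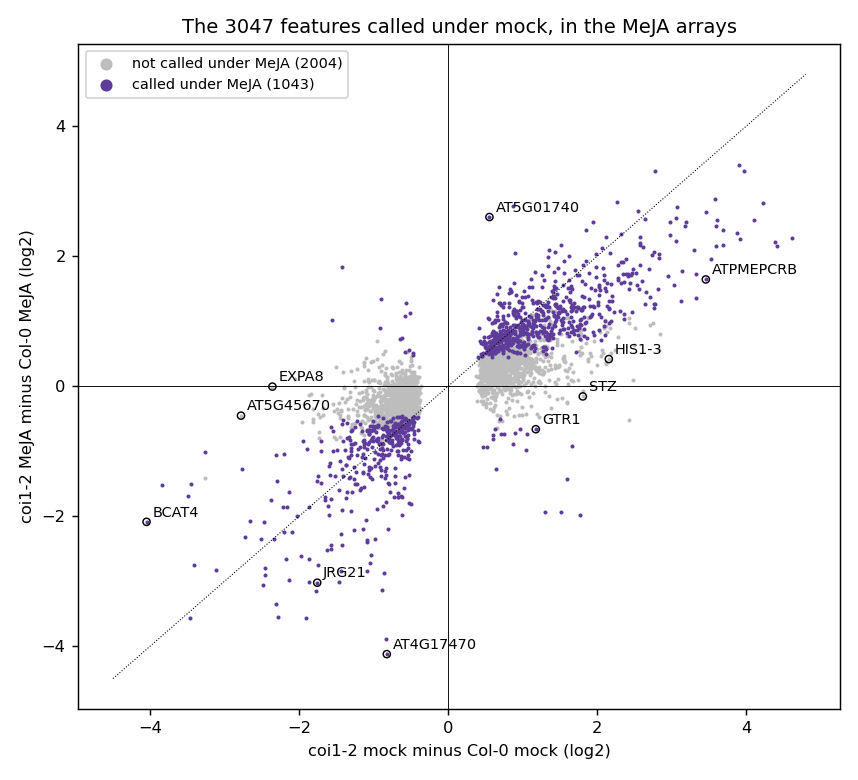
Difference between coi1-2 and Col-0 under mock (x axis, log2) and under MeJA (y axis, log2) for the 3047 features called under mock; purple points were also called under MeJA (1043), grey points were not (2004), and the dotted line marks equal differences. Most points have the same sign on both axes, with medians nearer 0 on the y axis (0.50 and −0.34), while EXPA8 and STZ lie near 0 on it.

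The ethylene mutant under the same mock treatment was set against the same Col-0 mock arrays, and the test between the mutants uses the same coi1-2 mock arrays as above. Some of these genes differed between the mutants and others did not pass that test. BCAT4 was −4.05 from Col-0 in coi1-2 and −0.05 in ein3 eil1, and the mutants differed (adjusted p = 4.89e-09). NAI2 was −1.76 from Col-0 in coi1-2 and 0.79 in ein3 eil1 (mutants differing at adjusted p = 2.03e-07), and JRG21 was −1.76 in coi1-2 and 2.12 in ein3 eil1 (adjusted p = 1.23e-06). STZ was 1.81 above Col-0 in coi1-2 and 1.82 in ein3 eil1, with a difference between the mutants of −0.02 (adjusted p = 0.984). LTI30 (adjusted p = 0.64), UGT73B5 (adjusted p = 0.18) and CML37 (adjusted p = 0.13) also did not pass between the mutants. Over all features 12.9% were called between the mutants, 5.83% with coi1-2 higher and 7.11% with coi1-2 lower.

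**Figure D5:**
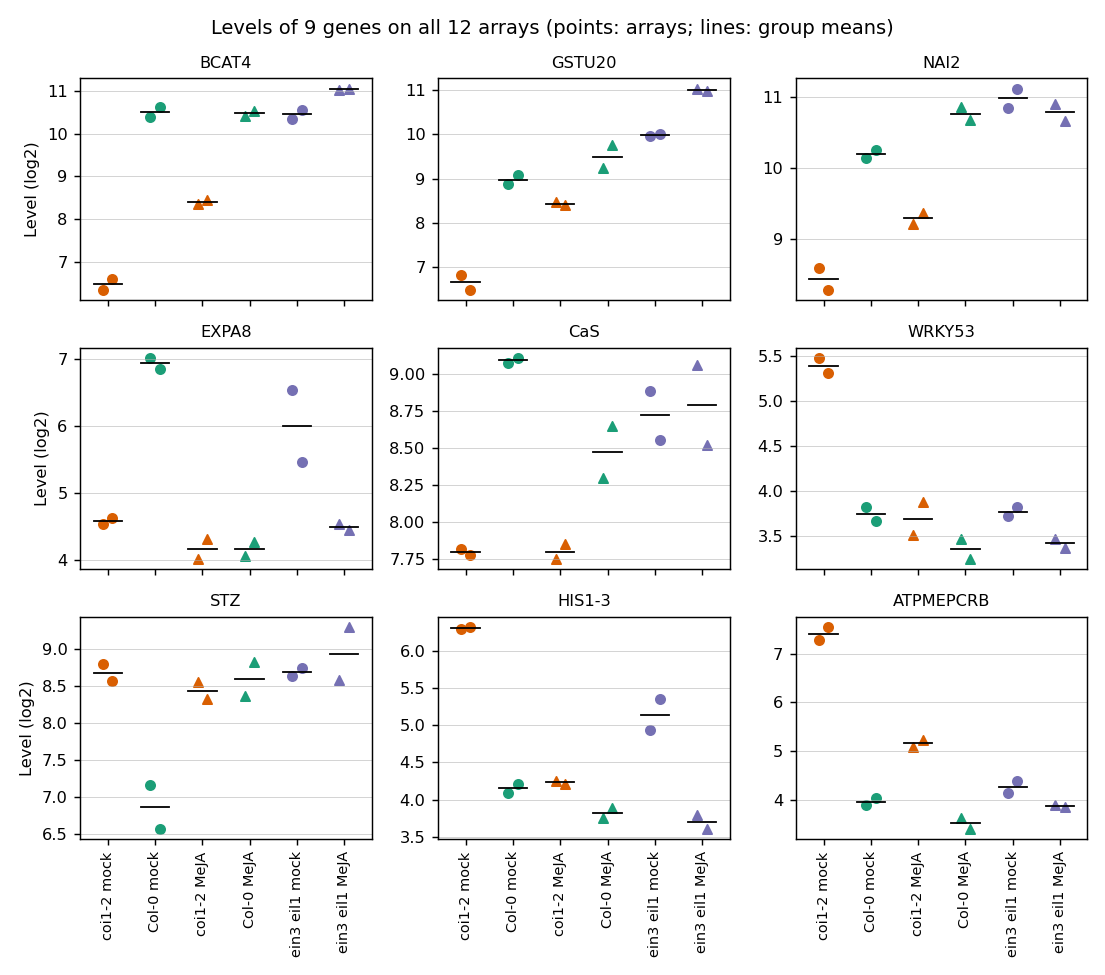
Level (y axis, log2, not starting at 0) of 9 genes on all 12 arrays by group (x axis), with circles for mock, triangles for MeJA and lines for group means. BCAT4, GSTU20 and NAI2 are lowest in coi1-2 under mock, whereas EXPA8 is highest and STZ lowest in the Col-0 mock arrays.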

How the data were processed

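Expression was measured on ATH1 arrays, hybridised with biotin-labelled targets made from 100 ng total RNA, per the labels. The deposited log2 values of 22810 probe sets were made by the authors with Affymetrix Expression Console, RMA and Partek, per the submitters' processing notes; for versions, order and genome build the sources used here give nothing. RMA makes the arrays' distributions alike, which hides any shift common to most genes. The labelling manual the labels cite is for whole-transcript targets, and which target was hybridised could not be checked.

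The 64 control probe sets were left out. Names came from the platform annotation (13513 probe sets with 1 gene, 503 with several, 8730 with none here), of which 13436 matched the TAIR10.1 RefSeq gene table, used for names only. Probe sets of 146 genes were averaged, leaving 22589 features. limma 3.58.1 (R 4.3.3; lmFit, eBayes) fitted 6 group means over all 12 arrays, with contrasts coi1-2 against Col-0 under mock and under MeJA, their difference, and coi1-2 against ein3 eil1 under mock. The tests were run on simulated data with independent noise and 200 changed features. Such data hold no array or batch effects, so they cannot check the calls against these. Tables were read in Python 3.11.15 with pandas 2.3.3 and drawn with matplotlib 3.10.9. Array number, 2 per group, limits the precision.

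Named were COI1 and EIN3 where measured, the 15 highest and 15 lowest differences among called genes whose arrays do not overlap, the 6 of highest level, the 8 with the smallest interaction p, and up to 6 members per list plus 2 that did not pass. Further list members are named from their values. The comparison and lists were chosen with earlier results of these data known, and families collected by symbol were added after values were seen, so lists carry counts and medians and no test. Families taken by symbol are incomplete, because 11799 of 13356 named genes carry only a locus code. Alternatives were quantile normalization, median centring, level filters (25th or 50th percentile), trend and robust eBayes, fits of 4 or 8 arrays, a replicate block, array weights, single arrays left out, other handling of probe sets, adjusted p under 0.01 and a 2-fold minimum.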

Additional observations from a re-analysis of the deposited data

Results flagged for a closer look

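In 23 of the 217 named genes the difference between coi1-2 and Col-0 under MeJA differed from that under mock (interaction, MeJA minus mock difference, log2, limma adjusted p under 0.05). Over all features 1.17% were called in this way. The named genes include 8 chosen for the smallest interaction p and others chosen by their mock difference. Their count therefore cannot be compared with that share, and the interactions are given as values only. The difference was closer to 0 under MeJA for the coi1-2-higher genes AT1G26380 (−1.65), ATPMEPCRB (−1.82), AT2G44370 (−1.19), AT1G65500 (−1.37), WRKY53 (−1.31) and HIS1-3 (−1.74). It turned negative for the coi1-2-higher genes STZ (−1.965), AT2G04400 (−1.79) and GTR1 (−1.84). Under MeJA itself AT2G04400 was at −0.74 (limma adjusted p = 0.00926) and GTR1 at −0.66 (adjusted p = 0.0396), both called lower in coi1-2. STZ, at −0.16, was not called there. The difference was also closer to 0, or turned positive, for the coi1-2-lower genes BCAT4 (1.961), AT5G45670 (2.33), EXPA8 (2.35), GSTU20 (1.26), AT5G44680 (1.73) and AT5G11420 (1.82). The negative difference was larger under MeJA for AT4G17470 (−3.30), AT2G38240 (−1.67), GSTU26 (−1.27) and MSRB9 (−1.31). The positive difference was larger under MeJA for AT5G01740 (2.05) and CYP71B23 (1.16). OPCL1 (−1.08) and UGT72E1 (1.36) did not pass under mock. With each of the 8 arrays of these groups left out in turn, 13 of the 23 kept the call every time. The interaction shares the mock arrays with the mock difference.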

How the results depend on the processing

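Calls higher in coi1-2 outnumbered calls lower in coi1-2 under all alternatives run, and 0 called genes in the named set reversed. The 3047 calls became 1543 at adjusted p under 0.01 (969 higher, 574 lower) and 924 with a 2-fold minimum (637 higher, 287 lower). Leaving out single arrays gave 1733 to 2973 calls, 998 to 1658 higher and 735 to 1315 lower. The share of mock calls also called under MeJA, 33.1%, was 36.8% with features above the 50th percentile of level, 35.5% with trend and robust eBayes, 43.4% with array weights, 35.3% with the 8 arrays of Col-0 and coi1-2, 38.9% with a 2-fold minimum and 18.9% to 42.8% with single arrays left out. The share was not computed for the fit of 4 arrays. The causes were not tested. The MeJA and 8-array alternatives were chosen after seeing the data. With the replicate number as a block 3019 features were called (1665 higher, 1354 lower) and the share was 33.5%. Deviations of same-numbered coi1-2 and Col-0 mock arrays correlated at 0.0937. This value alone cannot decide whether same-numbered arrays were handled together. The share of calls that were higher was 51.4% with quantile normalization, against 55.0% without it. Of 143 called genes in the named set 54 lost the call without some mock array, and 44 had a group below its arrays' median level, where the size of a difference is uncertain.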
